A study of Mus musculus with 14 samples.

Results

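The nuclear-encoded subunits of respiratory complexes II to V were followed in the ventricles of mice 1 week after surgery. They were taken by gene symbol as the Sdha to Sdhd, Uqcr, Cyc1, Cycs, Cox4 to Cox8 and Atp5 genes, with pseudogene symbols in -ps left out. The rule found 51 of the 54532 rows of the count table, which were 4 of complex II, 9 of complex III, cytochrome c (Cycs), 19 of complex IV and 18 of complex V (ATP synthase). Of these, 48 had enough counts to be tested, and the other 3 (Cox7b2, Cox8c and a second Atp5o identifier) had no count in any library. Polyadenylated RNA was sequenced from CCL24 KO mice, which lack the chemokine gene Ccl24, after transverse aortic constriction (TAC, n = 4), wild type mice after TAC (n = 6), CCL24 KO mice after sham surgery (n = 2) and wild type mice after sham surgery (n = 2). TAC narrows the aorta and makes the left ventricle pump against a raised pressure. Strain, sex and age, and whether the knockout is confined to some cells, are not stated in the labels.

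Complex II (succinate dehydrogenase) feeds electrons from the citric acid cycle into the chain, complex III passes them to cytochrome c, and complex IV (cytochrome c oxidase) hands them to oxygen. Complexes III and IV also pump protons, and complex V uses the proton gradient to make ATP. Heart muscle covers most of its ATP demand this way, and it uses striated muscle isoforms of several complex IV subunits. All complex II subunits are encoded in the nucleus, whereas complexes III, IV and V also contain subunits encoded in mitochondrial DNA.

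The libraries held 17072262 to 33123052 gene counts. The targeted gene, Ccl24, had 3 to 8 counts in the 6 knockout libraries, 61 and 72 counts in wild type sham, and 56 to 105 counts in 5 of the 6 wild type TAC libraries. The library labelled wild type TAC replicate 1 had 3 counts, which is the knockout level and goes against its label, so results are given with and without it. Cardiomyocyte markers fitted the tissue label, since all 12 of 12 (Myh6, Tnnt2, Tnni3 and others) were expressed. Their summed level was 78503 to 89980 CPM (counts scaled to library size with TMM factors) in knockout TAC, 64530 to 84247 in wild type TAC, 91828 to 93654 in knockout sham and 84209 to 85179 in wild type sham.

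The promoters of 4 members are shown as examples, picked as stated below, and do not stand for the whole set. Each is the 250 bases before the start site in the RefSeq table of GRCm38.p6, which held promoters for 34 of the 48 tested members. Cox6b2 (chr7:4753095-4753344, minus strand) and Cox7a1 (chr7:30183921-30184170, plus strand) are shown because they had the highest knockout to wild type ratios after TAC among the called members. Atp5g3 (chr2:73911327-73911576, minus strand) and Atp5h (chr11:115419920-115420169, minus strand) are shown because they held letters known to bind regulators of respiratory genes, printed in capitals. In Atp5g3 the capitals mark the reverse complement of TNAAGGTCA, the estrogen-related receptor motif, and in Atp5h they mark the NRF1 motif GCGCNTGCG followed by the ETS motif CCGGAAG, both as reverse complements.
Cox6b2: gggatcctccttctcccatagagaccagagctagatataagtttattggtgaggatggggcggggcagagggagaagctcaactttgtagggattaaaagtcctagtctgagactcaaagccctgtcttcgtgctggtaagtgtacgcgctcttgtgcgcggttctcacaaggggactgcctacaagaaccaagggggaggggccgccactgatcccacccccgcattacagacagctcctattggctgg
Cox7a1: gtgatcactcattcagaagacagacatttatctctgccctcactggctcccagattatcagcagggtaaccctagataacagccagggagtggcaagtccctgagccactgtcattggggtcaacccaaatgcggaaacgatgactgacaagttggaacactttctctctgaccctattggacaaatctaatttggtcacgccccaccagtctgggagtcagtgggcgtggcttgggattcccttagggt
Atp5g3: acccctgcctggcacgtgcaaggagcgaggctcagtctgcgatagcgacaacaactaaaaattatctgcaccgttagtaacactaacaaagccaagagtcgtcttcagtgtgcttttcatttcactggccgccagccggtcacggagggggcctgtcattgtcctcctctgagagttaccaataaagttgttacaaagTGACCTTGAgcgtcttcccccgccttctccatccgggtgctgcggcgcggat
Atp5h: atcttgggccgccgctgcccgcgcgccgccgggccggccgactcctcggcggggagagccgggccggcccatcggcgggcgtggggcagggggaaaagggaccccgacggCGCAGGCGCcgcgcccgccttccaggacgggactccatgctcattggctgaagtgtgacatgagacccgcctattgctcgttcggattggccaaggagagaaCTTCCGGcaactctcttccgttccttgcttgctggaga
On both strands, the NRF1 letters stood in 9 of the 37 promoters of tested members (24.3%), against 5.19% of the 32851 promoters in the table. The ETS letters, bound by GABP, were in 9 of 37 (24.3%), against 6.91% of all promoters. The estrogen-related receptor letters were in 1 of 37 (Atp5g3), against 1.14%, and the YY1 letters AAGATGGCG in 1 of 37 (Atp5j), against 0.606%. Among the 14 promoters of members that were higher in knockout after TAC, 3 held the NRF1 letters (Atp5g2, Atp5h, Atp5k) and 3 the ETS letters (Atp5e, Atp5h, Atp5j). None of the 4 motifs was found in the Cox6b2 or Cox7a1 window. The motifs did not overlap each other in the windows shown, and a match of letters is not evidence of binding.

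Across the 4 groups, the members together took 3.67% ± 0.0830 of all counts in knockout TAC over 4 hearts, 3.05% ± 0.317 in wild type TAC over 6, 3.74% ± 0.206 in knockout sham over 2 and 3.08% ± 0.00162 in wild type sham over 2 (mean ± SD). The share was lowest in wild type TAC replicate 6 (2.69%) and highest in knockout sham replicate 2 (3.88%). Wild type TAC replicate 1 was at 3.56%, close to the lowest knockout TAC library at 3.57%. The other 5 wild type TAC libraries were at 2.69% to 3.28%.

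Per kilobase of exon, the most abundant member was Cox6a2, the striated muscle isoform of complex IV subunit 6A, at a mean of 2011 CPM per kb over all libraries. The length joins the exons of all annotated transcripts of a gene, 680 bases for Cox6a2 and 4237 for Atp5b. The order therefore depends on the annotation. Atp5a1 (1206 CPM per kb) and Atp5b (1106), subunits alpha and beta of the catalytic head of ATP synthase, and Cox8b (1122), a striated muscle subunit of complex IV, followed. The lowest were Cox6b2 at 0.916 CPM per kb, Cox6c2, annotated as a processed pseudogene, at 7.75, Atp5s, known as a coupling factor B-like protein, at 8.58, and Cox4i2, the alternative subunit 4 isoform linked to low oxygen, at 15.7. Cox6c2 shares nearly all of its sequence with Cox6c, which had 237579 counts in all against 578 for Cox6c2, so its level is uncertain.

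By complex, the median member of complex II stood at 9.27 ± 0.11 log2(CPM + 0.5) in knockout TAC, 8.98 ± 0.23 in wild type TAC, 9.42 ± 0.07 in knockout sham and 9.13 ± 0.01 in wild type sham (mean ± SD over libraries). For complex III the values were 9.27 ± 0.11 in knockout TAC, 8.95 ± 0.22 in wild type TAC, 9.22 ± 0.25 in knockout sham and 8.79 ± 0.01 in wild type sham. For complex IV they were 9.14 ± 0.10 in knockout TAC, 8.60 ± 0.27 in wild type TAC, 9.19 ± 0.22 in knockout sham and 8.73 ± 0.02 in wild type sham. For complex V and Cycs, as for the others, the knockout mean was above the wild type mean of the same surgery, and in the plot of complex levels wild type TAC replicate 1 was at the top of its group. Complex V was at 9.20 ± 0.06 in knockout TAC, 8.94 ± 0.18 in wild type TAC, 9.18 ± 0.27 in knockout sham and 8.88 ± 0.03 in wild type sham. Without replicate 1, wild type TAC stood at 8.90 ± 0.14 for complex II and 8.90 ± 0.19 for complex III. It then stood at 8.52 ± 0.20 for complex IV and 8.89 ± 0.15 for complex V. Cycs was at 8.55 ± 0.27 in wild type TAC with that library and 8.45 ± 0.13 without it.

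**Figure D1:**
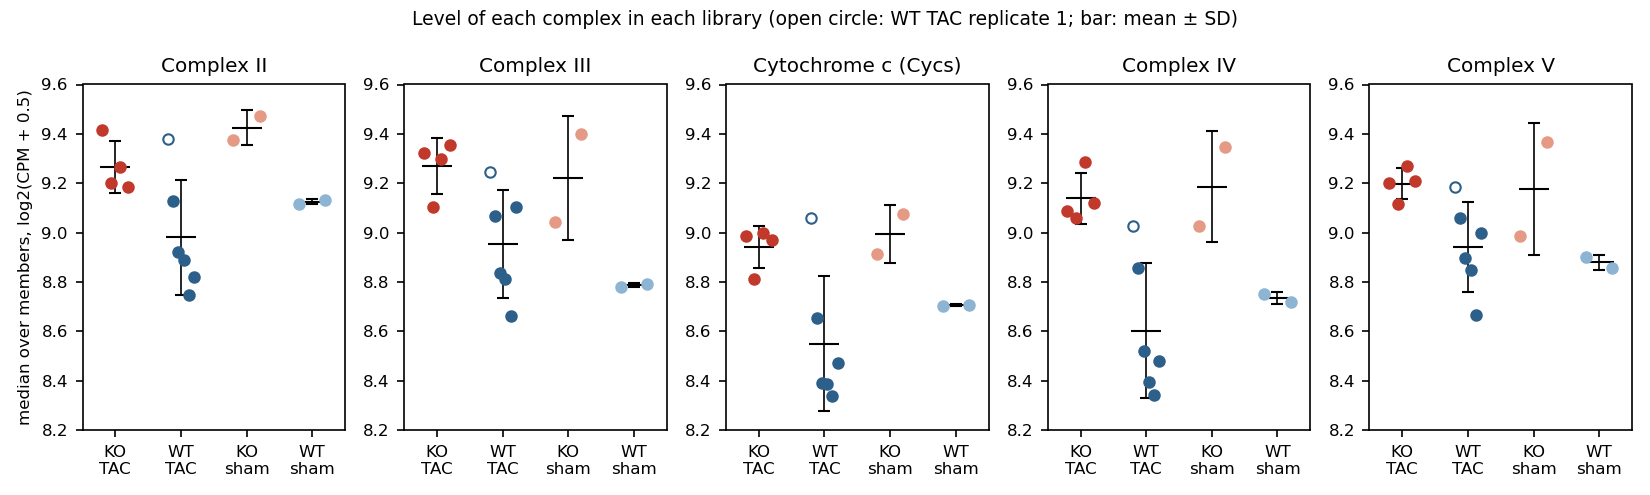
Median over the tested members of log2(CPM + 0.5) for each complex and for cytochrome c in each library; points are libraries, the open circle is wild type TAC replicate 1, and bars are mean ± SD. The 4 knockout TAC libraries lie between 9.06 and 9.29 for complex IV, and the 5 wild type TAC libraries other than replicate 1 between 8.34 and 8.86.

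Comparing knockout with wild type after TAC asks whether the loss of Ccl24 goes with a different respiratory chain programme in the loaded heart. Of the 48 members tested, 17 passed the threshold upward (higher in knockout, as were 3.71% of all 15876 genes). Downward, 0 passed it (5.63% of all genes). With 1 library left out, the member count ran from 1 to 39, and the number of all genes called higher from 79 to 1350. Calls came from edgeR's quasi-likelihood test with a Benjamini-Hochberg adjusted p below 0.05. The median log2 fold change of the members was 0.34, against -0.01 over all genes, and all 48 were above 0. At an unadjusted p below 0.05 there were 39 members of 48, and 4565 of all 15876 genes. Called were 1 of 4 in complex II (Sdhb), 3 of 9 in complex III, 7 of 17 in complex IV and 6 of 17 in complex V, while Cycs was not called. Medians by complex were 0.23 for II, 0.30 for III, 0.36 for IV and 0.34 for V.

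The smallest p belonged to Cox6b2 (chr7:4751792-4753094, minus strand, GRCm38), an isoform of complex IV subunit 6B best known from testis. It had 1.84, 1.68, 1.72 and 1.26 CPM in the knockout TAC libraries, against a lowest, median and highest value of 0.425, 0.670 and 0.809 CPM in the 6 wild type TAC libraries. The groups did not overlap. These levels rest on few reads, 22 to 48 counts in a knockout TAC library and 9 to 27 in a wild type TAC library. Its log2 fold change was 1.37 (SE 0.24, adjusted p = 0.0047), or 2.58-fold, and the call was kept in all 14 fits that left out 1 library. Per kilobase, its ratio to the widely expressed Cox6b1 was 0.00129 in knockout TAC and 0.000594 in wild type TAC, so it made up a minute part of subunit 6B transcripts in every group.

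Of the 7 called members of complex IV, Cox6b2 and a further 3 are isoforms that heart muscle favours or that differ between tissues. Cox7a1, the striated muscle isoform of subunit 7A, had 636, 536, 717 and 653 CPM in knockout TAC, against 324, 361 and 589.9 CPM (lowest, median, highest) in wild type TAC. The highest wild type value was replicate 1, and the other 5 were at or below 490.4 CPM, under every knockout library. Its log2 fold change was 0.63 (SE 0.16, adjusted p = 0.027) and 0.76 (adjusted p = 0.0012) without that replicate. Cox6a2, at 1449, 1563, 1664 and 1552 CPM in knockout TAC against 1085, 1200.4 and 1386 in wild type TAC, was higher by 0.35 (SE 0.09, adjusted p = 0.032) with no overlap. Cox4i2 had 13.7, 15.9, 15.7 and 15.8 CPM in knockout TAC, against 10.3, 11.1 and 13.7 CPM in wild type TAC. Its lowest knockout library, replicate 1, met the highest wild type library, again replicate 1, and the log2 fold change was 0.43 (SE 0.10, adjusted p = 0.017).

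The remaining called subunits of complex IV are part of the enzyme in most tissues. Cox5a, a subunit on the matrix side, had 734, 685, 804 and 781 CPM in knockout TAC, against 478, 528 and 679 CPM in wild type TAC, with no overlap. The highest wild type value was again replicate 1, and the other 5 were at most 591 CPM. The log2 fold change of Cox5a was 0.45 (SE 0.10, adjusted p = 0.017). Cox5b, which binds zinc, was at 544, 563, 680.3 and 655 CPM in knockout TAC and 407, 454 and 520.3 CPM in wild type TAC, higher by 0.40 (SE 0.10, adjusted p = 0.024) with no overlap. Cox6c passed at 0.42 (adjusted p = 0.038), with 741 to 927 CPM in knockout TAC and 532 to 772 CPM in wild type TAC, which overlapped through wild type replicate 1. The muscle isoform Cox8b missed the threshold at 0.38 (SE 0.12, adjusted p = 0.051), although its knockout TAC libraries (441 to 496 CPM) lay above all wild type TAC libraries (296 to 439 CPM). Cox4i1, the main form of subunit 4, was not called either (0.31, SE 0.10, adjusted p = 0.066).

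In complex V, Atp5g3, one of 3 genes that encode the same subunit c of the proton-driven rotor, had 1537, 1479, 1819 and 1584 CPM in knockout TAC. The wild type TAC libraries ranged from 894 through a median of 1006 to 1479 CPM. Knockout replicate 2 and wild type replicate 1 met at that value, and the other 5 wild type libraries were at most 1195 CPM. The log2 fold change was 0.55 (SE 0.13, adjusted p = 0.019). Atp5g2, the second subunit c gene, was at 206, 212, 209 and 197 CPM in knockout TAC, against 144, 168 and 186 CPM in wild type TAC, and it was higher by 0.29 (SE 0.08, adjusted p = 0.030) without overlap. The third, Atp5g1, was not called (0.34, SE 0.11, adjusted p = 0.056), and the nearly identical copy Gm10039 held 117.8% as many counts as Atp5g1 itself, so its level is uncertain. Atp5e (epsilon, in the central stalk), Atp5h (in the peripheral stalk), Atp5k (subunit e) and Atp5j (coupling factor 6) completed the called members, at log2 fold changes of 0.45, 0.38, 0.40 and 0.34. The catalytic subunits were not called, with Atp5a1 at 0.24 and Atp5b at 0.16.

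Complexes II and III gave 4 called members. Sdhb, the iron-sulfur subunit of succinate dehydrogenase, had 975, 846, 972 and 925 CPM in knockout TAC, against 583, 640.0 and 909 CPM in wild type TAC. The groups overlapped through wild type replicate 1 alone, since the other 5 were at most 775 CPM, and the log2 fold change was 0.42 (SE 0.12, adjusted p = 0.036). Sdha, the flavoprotein that oxidises succinate, was not called (818 to 1108 CPM in knockout TAC, 636 to 971 CPM in wild type TAC, adjusted p = 0.22). Uqcrfs1, the Rieske iron-sulfur protein of complex III, had 797, 692, 852 and 817 CPM in knockout TAC, against 485, 542 and 748 CPM in wild type TAC, higher by 0.46 (SE 0.11, adjusted p = 0.024). Again 1 wild type library, replicate 1, lay among the knockout values. Uqcrb and the core protein Uqcrc1 passed at 0.44 (adjusted p = 0.034) and 0.38 (adjusted p = 0.048). Cyc1 (cytochrome c1) missed the threshold at 0.35 (adjusted p = 0.053), and Cycs was at 0.37 (adjusted p = 0.064).

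**Figure D2:**
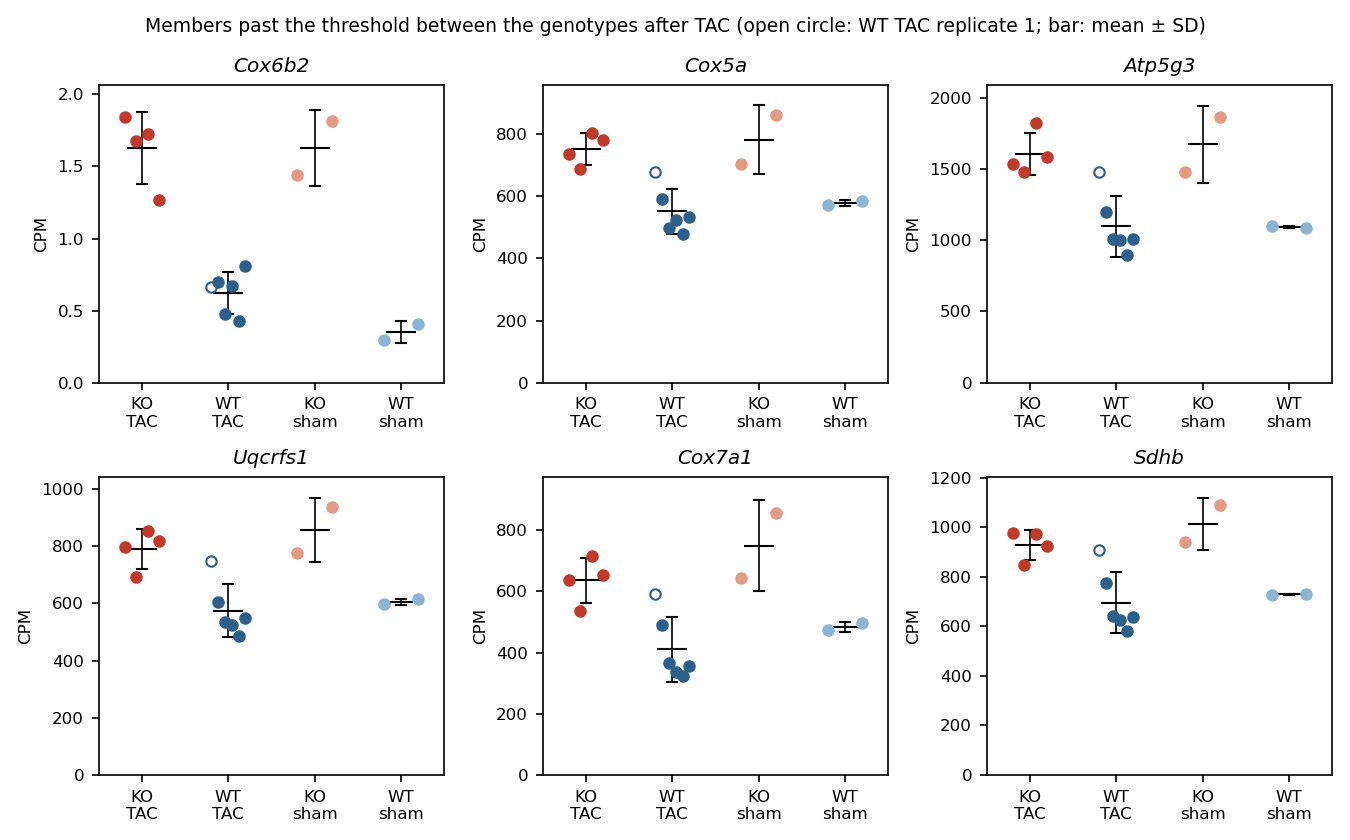
CPM with TMM factors of 6 called members in each library; points are libraries, the open circle is wild type TAC replicate 1, and bars are mean ± SD. In Cox5a, Cox7a1, Atp5g3, Uqcrfs1 and Sdhb the open circle is the highest of the wild type TAC libraries and lies near or among the knockout TAC libraries. In Cox6b2 neither holds.

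With wild type TAC replicate 1, whose label is in doubt, left out, 39 of 48 members were higher in knockout TAC (8.50% of all genes) and 0 were lower (1589 of all 15880 genes), with a median log2 fold change of 0.41. By complex these were 3 of 4 in II, 8 of 9 in III, 13 of 17 in IV and 14 of 17 in V, and Cycs was called too (0.49). The 9 members not called then were Sdha, Uqcr10, Cox6a1, Cox6c2, Cox7a2l, Cox8a, Atp5a1, Atp5b and Atp5j2. With all libraries, 9 of 48 members had every knockout TAC library above every wild type TAC library (2.44% of all genes), and 34 had without replicate 1 (6.81% of all genes). All 17 calls were kept without that library. The count also depended on others: 16 members passed without knockout TAC replicate 1, 7 without replicate 2, and 1 (Cox6b2) without replicate 4 or replicate 5. It was 4 without wild type TAC replicate 3 or replicate 4, 8 without replicate 6, 24 without replicate 2 and 20 without replicate 7. Leaving out wild type sham replicate 1 or replicate 2, which enter only the shared estimate of the spread, gave 8. The number of all genes called higher moved too, from 589 with all libraries. It was 877, 225, 155 and 79 without knockout TAC replicates 1, 2, 4 and 5. Without wild type TAC replicates 2, 3, 4, 6 and 7 it was 676, 234, 232, 391 and 563. Without wild type sham replicates 1 and 2 it was 346 and 351.

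**Figure D3:**
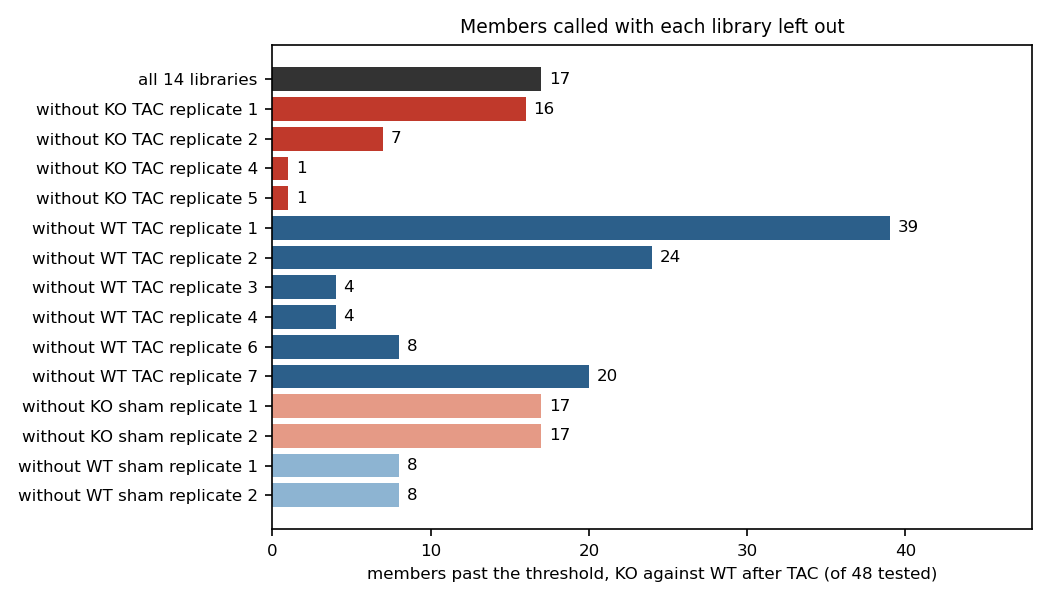
Number of members, of 48 tested, past the threshold between knockout and wild type after TAC with all libraries (top bar, 17) and with each library left out in turn; bars start at 0. The count runs from 1 without knockout TAC replicate 4 or 5 to 39 without wild type TAC replicate 1. Over all genes, 589 were called higher with all libraries. That number ran from 79 without knockout TAC replicate 5 to 1350 without wild type TAC replicate 1.

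Markers of other cell types differed in the same comparison. Fibroblast markers were lower in knockout TAC in 4 of 10 (Pdgfra by -0.69, Tcf21 by -0.91, Dpt by -0.54 and Dcn by -0.47 on the log2 scale), with a list median of -0.80 and summed levels of 4604 to 6646 CPM in knockout TAC and 6521 to 13982 CPM in wild type TAC. Macrophage markers were lower in 5 of 10 (among them Cd163 by -0.79 and Mrc1 by -0.60), with a median of -0.51 and sums of 322 to 426 CPM in knockout TAC and 378 to 653 CPM in wild type TAC. Cardiomyocyte markers were higher in 1 of 12 (Tnni3, 0.49), with a median of 0.21 and sums that overlapped. Endothelial markers were higher in 2 of 10 (Egfl7 by 0.69 and Cldn5 by 0.88, sums of 1283 to 1588 CPM in knockout TAC and 981 to 1517 CPM in wild type TAC), and red cell genes had a median of 1.06 with 0 of 5 called (sums of 233 to 914 CPM in knockout TAC and 174 to 272 CPM in wild type TAC). Without wild type TAC replicate 1, 10 of 10 fibroblast and 9 of 10 macrophage markers were lower in knockout TAC and 5 of 12 cardiomyocyte and 3 of 10 endothelial markers higher, with medians of -0.83, -0.60, 0.25 and 0.23. Atrial markers, which include Nppa, summed to 609 to 1350 CPM in knockout TAC and 615 to 5891 CPM in wild type TAC (1595 to 5891 CPM without replicate 1). Of the 4 tested, 0 were called, and 1 was lower without replicate 1. Between the genotypes after TAC 2 of them were above 0 and 2 below, from -1.70 to 2.01, with a median of -0.09. All 4 were above 0 for TAC against sham, with medians of 1.56 in wild type and 1.61 in knockout. Atrial tissue in the sample and a response to load therefore cannot be told apart in these sums. In bulk tissue, fewer cells of a type and less RNA per cell cannot be told apart, and the part of these shifts in the subunit result was not tested.

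Other mitochondrial lists stand beside these values. Complex I subunits were higher in 18 of 47 with a median of 0.35. Assembly factors of complexes II to V, which build the complexes but are not part of them, were higher in 5 of 36 (Coa6 0.42, Fmc1 0.63, Cox20 0.30, Cox14 0.29 and Tmem70 0.31, the last named after its value was seen) and lower in 0, with a median of 0.21. Of 23 mitochondrial genes outside the respiratory chain, 1 was higher (Phb2, a prohibitin, 0.23), with a median of 0.19. Of the 6 mitochondrially encoded subunits of complexes III to V, mt-Atp6 was higher (1.40, SE 0.23, adjusted p = 0.0051) and the other 5 were not called. None of 20 regulators of respiratory chain transcription was called in either direction by edgeR, including the coactivator Ppargc1a (0.09, adjusted p = 0.66), Esrra (-0.17, adjusted p = 0.11), Nrf1 (-0.04, adjusted p = 0.80) and Gabpa (0.05, adjusted p = 0.68). At an unadjusted p below 0.05 there were 2 regulators. Without wild type TAC replicate 1 the counts were larger: 39 of 47 complex I subunits, 14 of 36 assembly factors and 9 of 23 other mitochondrial genes were higher and 0 lower, with medians of 0.42, 0.27 and 0.22, while 1 of 20 regulators was lower (Hif1a, -0.34).

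After sham surgery, knockout against wild type asks for a difference before any load. No member passed upward (0.0378% of all genes) or downward (0.0882%), with 28 of 48 at an unadjusted p below 0.05 (1799 of all 15876 genes). With DESeq2 1 passed, with limma voom 0, and with the 4 sham libraries fitted alone 18. The shares of all genes called in these other fits are not given here, so the 18 cannot be set against a background. The median log2 fold change was 0.38, against 0.01 over all genes, and 47 of 48 values were above 0. In 45 of 48 members both knockout sham libraries lay above both wild type sham libraries (26.6% of all genes). Cox6b2 had 1.44 and 1.81 CPM in knockout sham, against 0.299 and 0.406 CPM in wild type sham, a difference of 2.20 on the log2 scale (SE 0.42, adjusted p = 0.054). Its adjusted p without wild type TAC replicate 1 was 0.035, when 1 member passed upward (0.113% of all genes) and 0 downward (0.283%). Over all leave-one-out fits its adjusted p ran from 0.027 to 0.48, and it was also below the threshold without wild type TAC replicate 7.

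The members with the next smallest p after sham were Cox7a2, the widely expressed subunit 7A isoform, and Atp5mpl, a small ATP synthase protein. Cox7a2 had 302 and 383 CPM in knockout sham, against 243 and 229 CPM in wild type sham (0.54, SE 0.18, adjusted p = 0.29). Atp5mpl had 260.2 and 357 CPM in knockout sham, against 213 CPM in each wild type sham library (0.53, SE 0.17, adjusted p = 0.29). In the same comparison fibroblast markers had a median of -0.23, macrophage markers -0.11 and cardiomyocyte markers 0.18, with 0 called in each list. Atrial markers summed to 185 to 208 CPM in knockout sham and 546 to 709 CPM in wild type sham. The 4 atrial markers tested did not share a direction, with 1 above 0 and 3 below. Their log2 fold changes ran from -1.70 to 2.01 with a median of -0.17, and 0 were called. For Cox7a1 the values were 644 and 854 CPM in knockout sham, against 473 and 496 CPM in wild type sham (0.63, SE 0.25, adjusted p = 0.35). In each of these genes knockout sham replicate 2 was higher than replicate 1 by more than the wild type sham libraries differed.

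**Figure D4:**
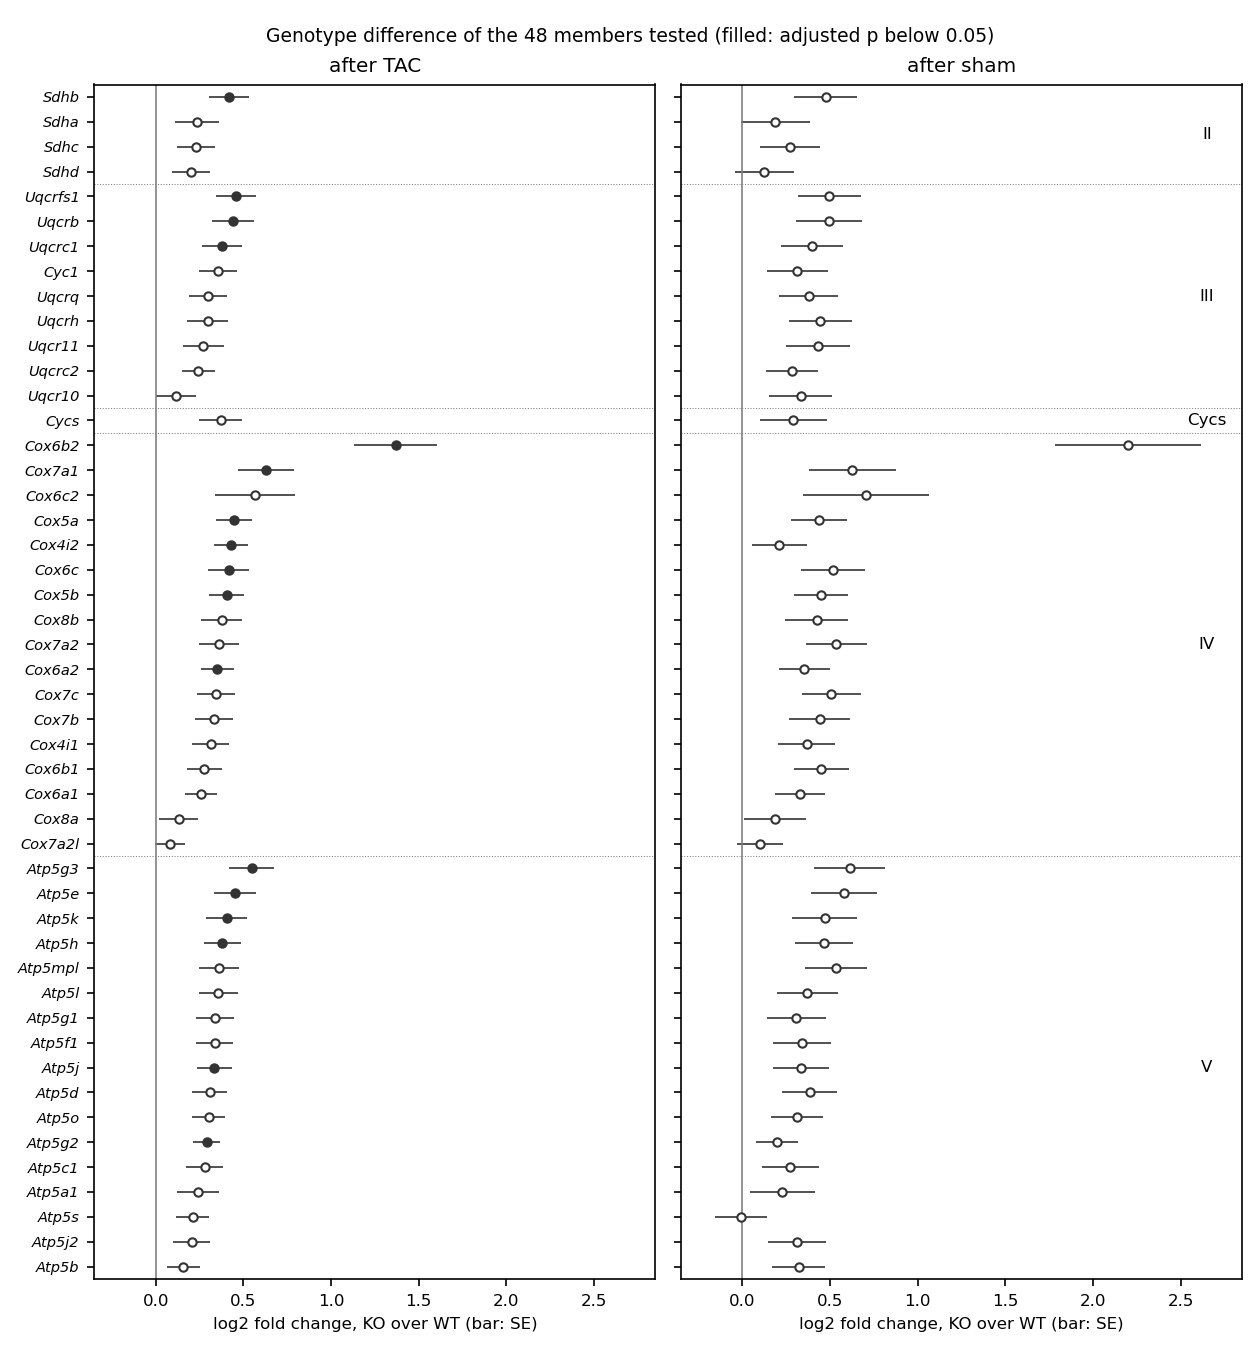
Log2 fold change of knockout over wild type with its SE for each of the 48 tested members, after TAC on the left and after sham on the right, grouped by complex; filled points have an adjusted p below 0.05. All 48 points after TAC and 47 after sham lie above 0, with Cox6b2 farthest at 1.37 after TAC and 2.20 after sham.

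Both genotype comparisons were positive for 47 of 48 members, as they were for 34.6% of all genes, and they share no library. With all libraries 35 of 48 interaction values were negative (a larger log2 fold change after sham) and 13 positive, with a median of -0.05. The balance turned without wild type TAC replicate 1, with 21 negative, 27 positive and a median of 0.02. The interaction, which tests whether the genotype difference changed with surgery, called 0 members and 0 genes of the table in either direction (0%). At an unadjusted p below 0.05 it had 0 members and 647 genes, and DESeq2 and limma voom also called 0 members. Without wild type TAC replicate 1 it called 2 genes upward (0.0126%) and 1 downward (0.00630%), none of them a member. The smallest p belonged to Cox6b2 (-0.83, SE 0.48), Atp5s (0.22, SE 0.18) and Cox4i2 (0.22, SE 0.19), each with an adjusted p of 0.997.

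Comparing TAC with sham in wild type hearts asks what the pressure load did to the same genes. Here 1 of 48 members was higher (6.36% of all genes) and 1 was lower (5.80%), and the median log2 fold change was -0.01, as over all genes (0.01). Cox6a1, the widely expressed counterpart of Cox6a2, had 73.1, 83.3 and 101 CPM (lowest, median, highest) in wild type TAC, against 63.9 and 65.4 CPM in wild type sham, and rose by 0.38 (SE 0.12, adjusted p = 0.048). Atp5s had 13.1, 15.2 and 18.9 CPM in wild type TAC, against 19.2 and 21.1 CPM in wild type sham, a difference of -0.38 on the log2 scale (SE 0.12, adjusted p = 0.046). Neither pair of groups overlapped, which held upward for 3 members (16.3% of all genes) and downward for 2 (16.6%). Each call failed in 8 of 14 leave-one-out fits. For Cox6a1 the libraries left out were knockout TAC replicates 2, 4 and 5, both wild type sham libraries and wild type TAC replicates 3, 4 and 7, and for Atp5s they were both knockout sham libraries, knockout TAC replicate 5, both wild type sham libraries and wild type TAC replicates 3, 4 and 6.

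Sdha, the third by p, had 636, 754 and 971 CPM in wild type TAC, against 1074 and 1036 CPM in wild type sham, and was not called (-0.44, SE 0.16, adjusted p = 0.073). Without wild type TAC replicate 1, 1 member was higher (Cox6a1, 9.25% of all genes) and 2 were lower (Atp5s and Sdha, 8.10% of all genes), with Sdha at -0.51 (adjusted p = 0.022) and a member median of -0.07. Also not called were Atp5a1 at -0.29 (adjusted p = 0.20), Atp5b at -0.07, Uqcrc1 at -0.11 and Cox7a1 at -0.24.

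The regulators did differ with load in wild type hearts. Of the 20, 11 were lower and 0 higher after TAC, among them Ppara, a fatty acid receptor, at -1.65 (SE 0.24, adjusted p = 0.0046), Ppargc1a at -0.93 (SE 0.14, adjusted p = 0.0052), Perm1, a muscle regulator of PGC-1 and ERR targets, at -0.79, and Esrrg at -0.73. Assembly factors were lower in 5 of 36 (among them Ttc19 at -0.48, Cox10 at -0.49, Cox15 at -0.46 and Taco1 at -0.85) and higher in 1 (Cox19, 0.50, named after its value was seen). Without wild type TAC replicate 1, 10 regulators were lower and 1 higher, and 9 assembly factors were lower and 1 higher. In the same comparison 7 of 10 fibroblast and 9 of 10 macrophage markers were higher and 2 of 12 cardiomyocyte markers lower (Pln and Ryr2).

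In knockout hearts, TAC against sham called 0 of 48 members upward (2.36% of all genes) and 0 downward (1.73%), with 3 at an unadjusted p below 0.05 and 0 by DESeq2 or limma voom. The same 0 and 0 were found without wild type TAC replicate 1 (2.87% and 2.44% of all genes). The median log2 fold change was -0.06. Groups did not overlap upward for 2 members (17.0% of all genes) and downward for 3 (17.6%). Cox4i2 had 13.7, 15.9, 15.7 and 15.8 CPM in knockout TAC, against 10.9 and 12.4 CPM in knockout sham (0.38, SE 0.14, adjusted p = 0.12). Cox6a1 had 99.5, 103, 101 and 98.6 CPM in knockout TAC, against 71.4 and 91.1 CPM in knockout sham (0.31, SE 0.12, adjusted p = 0.16). Sdha was at -0.39 (SE 0.17, adjusted p = 0.19). Among the regulators 4 of 20 were lower after TAC (Esrrg -0.83, Ppargc1a -0.79, Mef2a -0.43 and Gabpa -0.36) and 0 higher. There were 2 sham hearts per genotype, and a missed threshold does not show equal levels.

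The muscle isoforms can be read against their widely expressed partners within each library, as ratios of CPM per kb that do not depend on the scaling. These ratios are descriptions with no test. Cox6a2 to Cox6a1 stood at a mean log2 ratio of 4.00 ± 0.08 in knockout TAC, 3.91 ± 0.19 in wild type TAC, 4.32 ± 0.02 in knockout sham and 4.30 ± 0.01 in wild type sham, so every TAC library was below every sham library in each genotype. Cox7a1 to Cox7a2 stood at 1.79 ± 0.11 in knockout TAC, 1.50 ± 0.20 in wild type TAC, 1.94 ± 0.05 in knockout sham and 1.86 ± 0.10 in wild type sham. Cox8b to Cox8a stood at 2.70 ± 0.12 in knockout TAC, 2.45 ± 0.29 in wild type TAC, 2.99 ± 0.12 in knockout sham and 2.76 ± 0.05 in wild type sham. Without replicate 1, wild type TAC stood at 3.89 ± 0.20, 1.45 ± 0.19 and 2.39 ± 0.27 for these 3 pairs in turn. For the last 2 pairs the wild type TAC libraries were the most spread and held the lowest ratios. The muscle isoform was the more abundant in all 3 pairs and in every library. Cox4i2 to Cox4i1 went the other way, at a ratio of 0.0181 in knockout TAC, 0.0167 in wild type TAC, 0.0136 in knockout sham and 0.0150 in wild type sham.

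**Figure D5:**
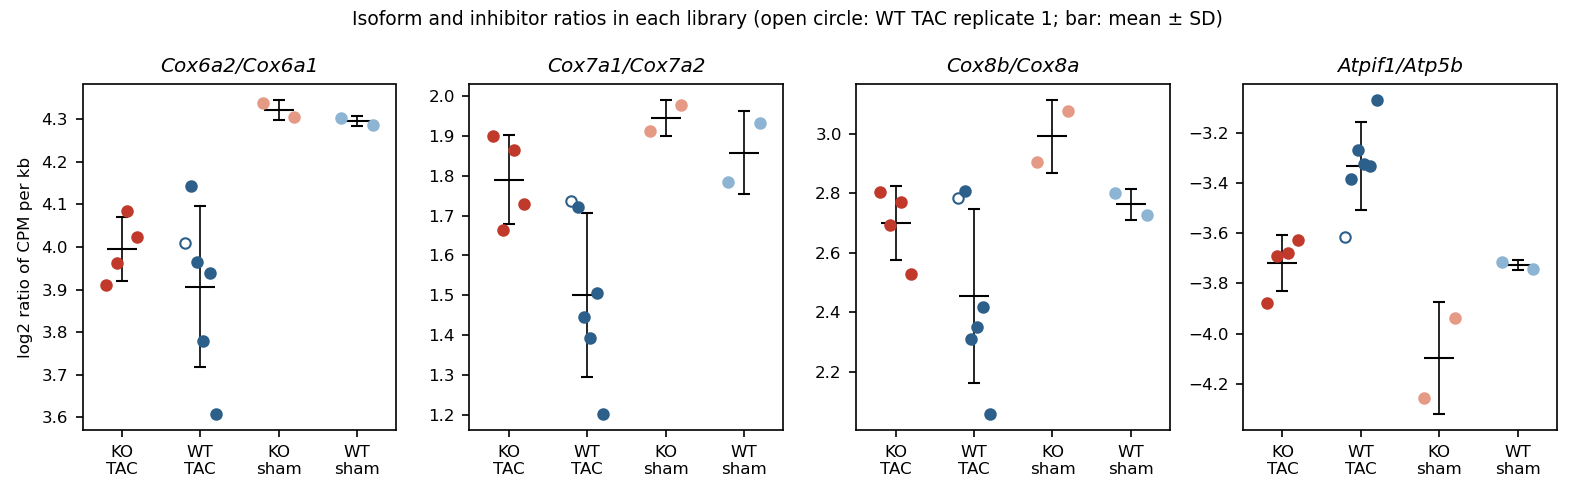
Log2 ratio of CPM per kb of muscle over widely expressed isoforms and of Atpif1 over Atp5b in each library; points are libraries, the open circle is wild type TAC replicate 1, and bars are mean ± SD. TAC libraries lie below the sham libraries for Cox6a2 to Cox6a1, and wild type TAC libraries lie above the others for Atpif1 to Atp5b.

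Atpif1, the inhibitor that blocks ATP hydrolysis by complex V and is not matched by the symbol rule, went against the subunits. It had 122, 118, 129.9 and 128 CPM in knockout TAC, against 127, 146 and 166 CPM in wild type TAC. The fold change was -0.23 on the log2 scale (SE 0.08, adjusted p = 0.089), so it was not called. In wild type hearts it was at 127 to 166 CPM after TAC, against 119 and 114 CPM after sham (0.32, SE 0.11, adjusted p = 0.062). Without wild type TAC replicate 1 it passed the threshold upward (0.345, adjusted p = 0.042), as did 9.25% of all genes. That was the only 1 of the 14 leave-one-out fits in which it was called. The log2 ratio of Atpif1 to Atp5b per kilobase was -3.72 ± 0.11 in knockout TAC, -3.33 ± 0.18 in wild type TAC, -4.10 ± 0.22 in knockout sham and -3.73 ± 0.02 in wild type sham. In wild type TAC without replicate 1 the ratio was -3.28 ± 0.12.

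Counting may blur some members. Of the 48 tested, 16 have annotated copies that match at least 80% of the coding sequence at 95% identity or more, such as the 8 copies of Atp5l, whose counts came to 33.0% of its own, and the 3 copies of Atp5h at 22.7%. Adding the copies' counts to their member gave 17 calls after TAC, the same 17. Whether counting used strand is not stated in the labels, and exons on the opposite strand cover 19.7% of Uqcrc2, 18.1% of Atp5o, 12.8% of Cox5a, 12.7% of Atp5j and 10.3% of Cox6a2. Mitochondrially encoded genes took 16.5% ± 1.90 of counts in knockout TAC, 13.9% ± 2.77 in wild type TAC, 22.1% ± 2.21 in knockout sham and 18.6% ± 0.245 in wild type sham. With those genes left out of the library sizes, 27 members were called after TAC, and 694 of all genes were higher (17 and 589 in the main fit).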

How the data were processed

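Messenger RNA of 14 mouse ventricle libraries was analysed. The deposited table holds whole-number read counts per gene, which the authors made with FastQC, HISAT2 2.1.0 and featureCounts on GRCm38, per the submitters' processing notes, which also name edgeR; no annotation release or strand setting is given in the sources used here. Totals of 17072262 to 33123052 counts make 3 counts equal to 0.0906 to 0.176 CPM. From these counts, edgeR 4.0.16 in R 4.3.3 (filterByExpr, TMM factors, robust quasi-likelihood fit of 4 group means over all 14 libraries) tested 15876 genes in 5 comparisons, with Benjamini-Hochberg adjustment over all genes and a threshold of 0.05. Each value printed as CPM uses TMM factors, and log2 levels add 0.5. The fit was tested on simulated data with 200 changed genes. Alternatives were DESeq2 1.42.0, limma 3.58.1 voom, RLE scaling, no low-count filter, libraries without mitochondrially encoded genes, the 2 groups alone, a replicate block, each library left out and, chosen after seeing the data, near-identical copies added (BLAST 2.17.0). Each library is taken as 1 mouse, since the study's stated group sizes equal the library numbers; libraries of 1 group differed by a chi-square per degree of freedom of 4.55 to 176, so none was a duplicate. Gene coordinates are from GENCODE M21, which held 54409 of the 54532 identifiers. The members and lists were chosen with earlier results of these data known. Named are the members past the threshold, the 3 with the smallest p where fewer passed, a fixed set of core subunits and regulators, and up to 4 genes of each other list with the smallest p.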

Additional observations from a re-analysis of the deposited data

Results flagged for a closer look

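Of 124 groups of members' values examined, 4 held a library far from the rest, where chance gives about 5% of groups. Cox4i2 was at 13.7 CPM in knockout TAC replicate 1, against 15.7 to 15.9 CPM in the other 3 libraries. Cox4i2 was also at 13.7 CPM in the library labelled wild type TAC replicate 1, against 10.3 to 11.4 CPM in the other 5. Atp5o was at 306 CPM in knockout TAC replicate 2 (329 to 332 CPM in the others), and Cycs at 449.5 CPM in the same library (501 to 511 CPM in the others).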

How the results depend on the processing

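Knockout against wild type after TAC called 17 members, all higher. The count was 27 without mitochondrially encoded genes, 33 with DESeq2, 10 with the 2 groups alone and 1 to 39 with 1 library left out. Over all genes, 589 were higher in the main fit, 694 without mitochondrially encoded genes, 1062 with DESeq2 and 294 with the 2 groups alone. With 1 library left out that number ran from 79 to 1350. The 17 members were all among the calls with RLE scaling (19, and 643 of all genes higher), voom (20, and 702) and DESeq2. Without the low-count filter 16 of them were kept (21 members called, and 491 of all genes higher). After sham the count of 0 became 1 with RLE scaling, 1 without mitochondrially encoded genes, 1 with DESeq2 and 18 with the 2 groups alone, and was 0 to 1 with 1 library left out. The shares of all genes called in those alternatives after sham are not given here, so the 18 has no background beside it. TAC against sham in wild type gave 2 calls, and 1 with RLE scaling, 1 without the filter, 1 with voom, 0 with the 2 groups alone and 0 to 3 with 1 library left out. TAC against sham in knockout and the interaction stayed at 0 in every alternative run. With the replicate number as a block, 0 members were called in each comparison, and 45 genes after TAC in place of 1483. Numbers 3, 5, 6 and 7 each belong to 1 library, which the block then takes up. The genotype comparison after TAC thus rests on replicates 1, 2 and 4 in that fit, wild type TAC replicate 1 among them. Correlations of 13 same-numbered pairs, taken on deviations from group means, ran from -0.215 to 0.06. In a sham group of 2 libraries these deviations mirror each other, so the correlations cannot exclude a shared litter or day. No called value changed sign, but the median interaction of the members was -0.05 with all libraries and 0.02 without wild type TAC replicate 1, and that of complex III (-0.05 and 0.02) and of complex V (-0.01 and 0.05) turned likewise. Depth limits Cox6b2 most, with 7 to 48 counts in a library. The cause of these shifts was not tested.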
